A study of Mus musculus with 24 samples.

Results

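Solute carrier genes were taken as all genes with a symbol of Slc followed by a digit that reached 1 RPKM (reads scaled by gene length and library depth) in 1 or both of 2 RNA-seq libraries. Slc2a1, Slc2a3, Slc23a1, Slc23a2, Slc7a11, Slc40a1 and Slc11a2 were left out by the rule. Of 362 remaining genes with such a symbol, 162 passed, out of 10436 genes that reached the same level and 22371 genes in all. The other 200 were below 1 RPKM in both libraries, and 115 of the 362 had no read in either. The minimum was reached in both libraries by 158 genes, in the untreated library alone by Slc22a21 and Slc16a3, and in the vitamin C library alone by Slc6a8 and Slc5a3, so those 4 had to differ to some extent. Just inside the minimum were Slc6a8 (0.166 RPKM untreated, 1.08 with vitamin C), Slc5a3 (0.901 and 1.10) and Slc22a15 (1.13 and 1.10). Just outside it were Slc18a1 (0.993 and 0.939), Slc11a1 (0.417 and 0.981) and Slc6a13 (0.934 and 0.318). Both libraries came from mouse bone marrow cells that had been immortalized by HOXA9, a homeobox factor, and carried a vector for IDH1 R132H, the mutant isocitrate dehydrogenase found in acute myeloid leukemia. The first culture was untreated. The second received 0.345 mM vitamin C at 0, 24 and 48 h and was harvested at 72 h. The cells grew in medium with IL-3, IL-6 and stem cell factor, so they are an immortalized culture and not primary leukemia cells. The ChIP-seq, hMeDIP-seq and WGBS lists used here came from the same IDH1 R132H cells, untreated or with vitamin C. The MeDIP-seq lists are filed with these cells, except 1 list filed with untreated HOXA9 cells of wild-type IDH1. Each condition had 1 library per assay, no test between conditions was possible, and every difference below is one between these 2 libraries with no replicate check.

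Solute carriers are membrane proteins that move ions, nutrients, metals and metabolites by facilitated diffusion, by exchange or together with a driving ion. Their numbered families (SLC1, SLC2 and so on) follow sequence relationship, and members of 1 family usually share a kind of substrate, such as amino acids in SLC7, zinc in SLC30 and SLC39, nucleotide sugars in SLC35 and metabolites of mitochondria in SLC25. Dividing blood progenitors take up amino acids, sugars, iron and zinc through them, load the Golgi for glycosylation and exchange nucleotides and acids with mitochondria. The transporters left out by the rule include those of vitamin C and glucose, so the genes described here carry mainly other substrates.

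Promoter sequences of 6 genes are shown. The first 3 belong to genes past 2-fold in RNA, and a methylation region described further on reaches the windows of Slc27a1 and Slc27a3. The other 3 overlap a PU.1 peak. Each is the RefSeq window of GRCm38.p6 from 250 bases before to 50 after an annotated start, which is the same build as mm10. In the first set, capitals mark CG dinucleotides, the usual site of DNA methylation. They are Slc27a1 (chr8:71570344-71570643, plus strand), Slc27a3 (chr3:90389889-90390188, minus strand) and Slc6a9 (chr4:117835008-117835307, plus strand).
Slc27a1: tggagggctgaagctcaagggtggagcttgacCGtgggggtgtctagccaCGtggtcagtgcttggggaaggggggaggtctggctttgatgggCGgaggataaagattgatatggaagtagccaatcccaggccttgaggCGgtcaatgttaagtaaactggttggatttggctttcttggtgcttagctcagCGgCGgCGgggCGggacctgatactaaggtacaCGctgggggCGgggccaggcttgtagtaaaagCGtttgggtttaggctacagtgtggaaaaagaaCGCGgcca
Slc27a3: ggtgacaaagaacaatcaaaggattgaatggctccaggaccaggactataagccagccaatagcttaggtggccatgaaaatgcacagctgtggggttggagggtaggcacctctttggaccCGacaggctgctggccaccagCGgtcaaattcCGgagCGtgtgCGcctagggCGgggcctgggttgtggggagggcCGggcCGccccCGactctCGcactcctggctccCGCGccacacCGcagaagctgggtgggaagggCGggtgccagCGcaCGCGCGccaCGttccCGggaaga
Slc6a9: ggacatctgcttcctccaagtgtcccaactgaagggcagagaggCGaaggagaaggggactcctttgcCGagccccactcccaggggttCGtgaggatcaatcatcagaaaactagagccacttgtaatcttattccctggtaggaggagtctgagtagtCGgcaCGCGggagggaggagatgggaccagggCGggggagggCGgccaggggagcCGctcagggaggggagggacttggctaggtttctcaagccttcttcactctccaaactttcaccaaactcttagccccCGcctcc
The windows of Slc27a1, Slc27a3 and Slc6a9 held 13, 20 and 10 CG dinucleotides. The median was 19 over the 162 windows of 125 solute carrier genes and 21 over the 10347 windows of the genes measured. In the next 3, capitals mark GGAAGT on either strand, a core sequence of ETS factors such as PU.1. They are the zinc carriers Slc39a7 (chr17:34031641-34031940, minus strand) and Slc30a6 (chr17:74395358-74395657, plus strand) and the carrier of the sulfate donor PAPS, Slc35b2 (chr17:45563686-45563985, plus strand).
Slc39a7: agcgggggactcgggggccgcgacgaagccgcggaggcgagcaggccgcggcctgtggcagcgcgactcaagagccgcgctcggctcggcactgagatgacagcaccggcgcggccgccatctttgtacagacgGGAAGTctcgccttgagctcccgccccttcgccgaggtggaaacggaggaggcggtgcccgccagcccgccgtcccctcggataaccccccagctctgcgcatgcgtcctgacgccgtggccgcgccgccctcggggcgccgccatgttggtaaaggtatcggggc
Slc30a6: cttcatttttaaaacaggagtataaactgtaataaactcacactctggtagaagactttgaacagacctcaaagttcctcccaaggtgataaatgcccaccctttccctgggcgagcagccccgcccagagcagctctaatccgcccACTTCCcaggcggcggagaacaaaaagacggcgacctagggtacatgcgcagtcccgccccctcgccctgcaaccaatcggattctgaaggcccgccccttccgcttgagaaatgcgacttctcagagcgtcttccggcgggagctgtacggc
Slc35b2: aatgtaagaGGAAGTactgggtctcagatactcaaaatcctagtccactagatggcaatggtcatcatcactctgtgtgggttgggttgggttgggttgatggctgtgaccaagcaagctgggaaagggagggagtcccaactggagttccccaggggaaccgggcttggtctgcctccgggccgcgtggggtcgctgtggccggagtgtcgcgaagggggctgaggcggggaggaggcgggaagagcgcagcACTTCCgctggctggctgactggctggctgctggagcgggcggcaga
Slc35b2 had 2 matches and the others 1 each. GGAAGT was found on either strand in 24.7% of solute carrier windows and in 30.0% of all windows. TGTGGT, a Runx core sequence, was found in 11.1% and 12.8%, and in none of the 6 windows shown. A match describes letters and not a bound site.

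The untreated library held 86804487 counts and the vitamin C library 111453443. Solute carriers made up 1.24% and 1.34% of them, between 63 and 68124 reads per gene and library. Markers of blood cells were present (4 of 4 measured, summed level 861 RPKM untreated and 875 with vitamin C). All 6 markers of myeloid progenitors were measured too, but their sum was 3460 RPKM untreated and 1578 with vitamin C. Markers of B cells, T cells, erythroid and epithelial cells were all below 1 RPKM, while Pdgfrb, 1 of 3 stromal markers, was at 28.0 and 17.2 RPKM with Col1a2 at 0. The blood cell sum was thus nearly level, but its members went apart. With vitamin C, Coro1a (293 and 327 RPKM) and Laptm5 (398 and 404) were higher. Spi1 (105 and 83.0) and Ptprc (65.1 and 61.2) were lower. Each of the 6 myeloid progenitor markers was lower with vitamin C. Ctsg (2101 and 1136 RPKM), Mpo (796 and 131), Prtn3 (285 and 107) and Kit (32.1 and 5.07) differed most. Elane (47.5 and 38.6) and Cebpa (198 and 161) differed less. The part of these marker levels in the differences below was not tested. In such bulk samples, fewer cells of a type and less RNA per cell cannot be told apart.

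Carriers of mitochondria and of amino acids led by level. Slc25a5, which exchanges ADP for ATP across the inner mitochondrial membrane, was the highest at 250.7 RPKM untreated and 268.6 with vitamin C. The zinc channel of the endoplasmic reticulum Slc39a7 followed (151.9 and 213.5), with the amino acid carrier Slc7a5 (144.6 and 208.7) and the heme carrier Slc48a1 (150.7 and 185.3). Next came Slc3a2, the heavy chain that Slc7a5 needs to reach the membrane (127.7 and 163.7), the choline transporter-like gene Slc44a2 (126.5 and 143.3) and the mitochondrial phosphate carrier Slc25a3 (118.9 and 115.6). Of these 7, all but Slc25a3 were higher with vitamin C, by at most 1.44-fold, and Slc25a3 itself changed sign under other scalings of the libraries. Summed over the 162 genes, the level was 4005 RPKM untreated and 4450 with vitamin C, a ratio of 1.11, where the ratio over all genes measured was 0.996.

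Differences of 2-fold or more were few. They were counted on log2 of RPKM + 0.5, a scale that understates changes of low genes. With vitamin C, 5 of 162 genes (3.09%) were at least 2-fold higher, against 2.38% of all genes measured. They were Slc6a9, Slc6a8, Slc39a4, Slc27a1 and Slc37a3. Slc27a3 alone was at least 2-fold lower, 0.617% of the genes against 1.92% of all genes measured. At 1.5-fold, 10 were higher (6.17%, against 6.21% of all genes) and 7 lower (4.32%, against 6.64%). The share of genes past either fold was therefore near the background for higher genes and below it for lower genes. The shares of lower genes rest on 1 and 7 genes, and their distance from the background was not tested. The list as a whole lay slightly higher, with a median log2 change of 0.09 against −0.04 over all genes, and 102 of 162 (63.0%) above 0 against 44.8%. Among the 129 with 5 RPKM or more in 1 or both libraries the median was 0.10, against −0.03 over all such genes. The exact 95% interval of the ratio, taken from the split of reads and covering counting error only, excluded 1 for 141 of the 162 genes (87.0%, against 84.3% of all genes measured). Of these, 91 were higher (56.2% of the 162, against 37.2% of all genes) and 50 lower (30.9%, against 47.1%). These intervals were narrow (median width 1.10-fold, widest 1.72-fold for Slc6a8), so reads limit few of the values and the missing replicates limit all of them. The authors' deposited table of higher genes holds 450 genes and lists the same 5 together with Slc30a6, 3.70% of the solute carriers and 3.93% of all genes measured. The authors' deposited table of lower genes holds none of them, against 1.72% of the genes measured. Both lists were chosen on these libraries and are no independent evidence.

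**Figure D1:**
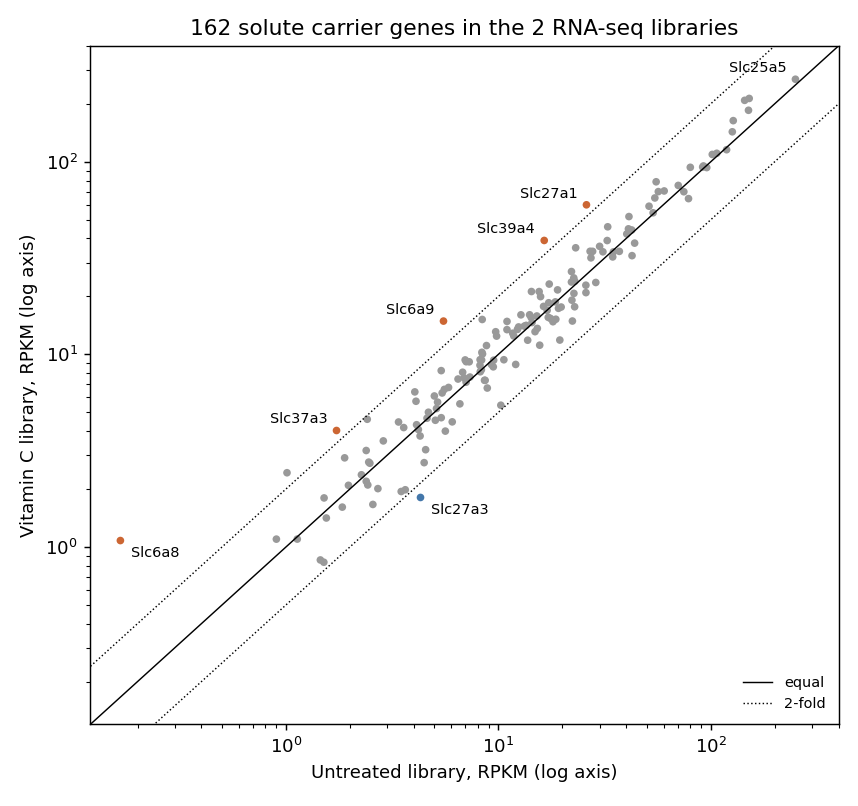
Each point is 1 of 162 solute carrier genes, placed by its untreated RPKM (x axis) and its RPKM with vitamin C (y axis), both on log axes. Orange points are the 5 genes at least 2-fold higher and the blue point is Slc27a3, at least 2-fold lower, on the scale of RPKM + 0.5. Most genes lie within the dotted 2-fold lines, up to Slc25a5 at 250.7 and 268.6 RPKM.

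Among carriers of amino acids and their derivatives, 12 of 19 were above 0, with a median log2 change of 0.06. Slc6a9, the glycine carrier GlyT1 that also supplies glycine for heme in blood precursors, was at 5.52 RPKM untreated (2063 reads) and 14.9 with vitamin C (7116 reads), a 2.70-fold difference (95% counting interval 2.57 to 2.84). It had the largest log2 change of all 162 genes, 1.36. Slc6a8, the creatine carrier, had 63 reads untreated and 523 with vitamin C, or 0.166 and 1.08 RPKM. Its ratio of 6.50 had the widest interval, 4.99 to 8.58, and it entered the list only through the vitamin C library. Both partners of the heterodimer for large neutral amino acids were higher, Slc7a5 1.44-fold and Slc3a2 1.28-fold. Slc7a8, another light chain of Slc3a2, was at 56.7 and 70.1 RPKM, and the cationic amino acid carrier Slc7a1 at 27.3 and 31.7. Of the 4 measured SLC7 genes, only Slc7a6 was lower, at 43.8 and 37.8. The glutamine carrier Slc1a5 (91.7 and 94.0 RPKM) and the taurine carrier Slc6a6 (95.8 and 93.4) were nearly level. At the low end, the neutral amino acid carrier Slc6a15 was at 19.5 and 11.9 RPKM, 1.64-fold lower. Slc36a1, which exports amino acids from lysosomes, was at 22.9 and 17.7, and Slc38a10 at 78.6 and 64.4. The 4 measured members of SLC6 thus ran from a log2 change of 1.36 down to −0.69.

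Metal carriers had the highest median of the families with more than 10 genes, 0.22, with 15 of 20 above 0. Their summed level was 431.8 RPKM untreated and 550.1 with vitamin C, a ratio of 1.27. The zinc importer Slc39a4 was at 16.5 RPKM untreated (2660 reads) and 39.1 with vitamin C (8074 reads), 2.38-fold higher (2.27 to 2.48). Slc30a6, which pairs with Slc30a5 to load zinc into the secretory pathway, was at 8.40 and 15.2 RPKM, 1.81-fold higher, while Slc30a5 itself was at 53.6 and 54.4. Slc39a7, which releases zinc from the endoplasmic reticulum, was 1.41-fold higher (1.39 to 1.43). The zinc importers Slc39a6 (41.2 and 52.0 RPKM), Slc39a10 (8.37 and 10.2) and Slc39a1 (30.0 and 36.4) were also higher, as was Slc39a14, a carrier of zinc, iron and manganese (5.00 and 6.08). Of 10 SLC39 genes, which move zinc into the cytosol, 7 were above 0 with a median of 0.27, and Slc39a13, at 5.38 and 4.69, was the lowest. Of 5 SLC30 genes, which move zinc out of it, 5 were above 0 with a median of 0.18. Zinc-binding metallothioneins, which are no carriers, were higher too, Mt1 at 448.8 and 643.8 RPKM and Mt2 at 104.5 and 211.6. The copper carriers Slc31a1 (19.0 and 21.6) and Slc31a2 (5.38 and 8.24) were 1.14-fold and 1.53-fold higher. The magnesium carrier Slc41a2 was at 1.01 and 2.43 RPKM, a ratio of 2.40, but its log2 change of 0.95 stayed below 2-fold with the added 0.5 RPKM. Its relatives Slc41a1 (8.32 in both libraries) and Slc41a3 (17.2 and 15.6) were not higher.

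The SLC35 family, taken here by number as nucleotide sugar carriers, moved little but mostly one way. Such carriers bring activated sugars into the Golgi and endoplasmic reticulum, but not every member does so (Slc35b1 carries ATP and Slc35b2 PAPS). Of the 20 SLC35 genes, 17 were above 0, with a median log2 change of 0.20 and a summed level of 372.5 RPKM untreated and 417.2 with vitamin C. Slc35d1, a carrier of UDP-glucuronic acid, was the furthest, at 2.41 and 4.60 RPKM (1.91-fold, 1.8 to 2.03). The carrier of CMP-sialic acid Slc35a1 (7.06 and 9.16 RPKM) and that of UDP-galactose Slc35a2 (12.8 and 16.0) were 1.30-fold and 1.26-fold higher. Slc35b1, an ATP carrier of the endoplasmic reticulum, was at 27.1 and 34.3, and Slc35b2 at 51.3 and 58.8. The GDP-fucose carrier Slc35c1 was nearly level at 41.0 and 44.9. Slc35a4, the highest of them per length, was at 70.4 and 75.4. Slc35f5, at 4.55 and 3.20, had the lowest log2 change, −0.45, and only Slc35b4 and Slc35e3 joined it below 0.

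Mitochondrial carriers, the largest family, showed no common direction. Of 36 SLC25 genes, 18 were above 0 and the median was 0.01, with a summed level of 1114 RPKM untreated and 1133 with vitamin C. Slc25a25, a carrier of ATP-magnesium and phosphate, was highest by change, at 4.04 and 6.39 RPKM (1.58-fold, 1.48 to 1.69), and its relative Slc25a24 was at 22.1 and 26.9 while Slc25a23 was at 8.61 and 7.34. The dicarboxylate carrier Slc25a10 (11.0 and 14.8) and the oxoglutarate carrier Slc25a11 (60.4 and 70.6) were higher, and the citrate carrier Slc25a1 was at 101.8 and 109.3. Slc25a29, a carrier of basic amino acids, was at 3.65 and 1.98 RPKM, 1.84-fold lower, the lowest of the family. The iron importer Slc25a37, or mitoferrin, was at 42.6 and 32.6 (1.31-fold lower) and its relative Slc25a28 at 34.6 and 32.1. The aspartate and glutamate exchangers went apart, Slc25a12 at 25.9 and 20.9 and Slc25a13 at 13.5 and 14.1. Slc25a38, which brings glycine in for heme synthesis, was level at 8.22 and 8.13, unlike the plasma membrane glycine carrier Slc6a9. How reads shared by near-identical copies, such as Slc25a4 and Slc25a5 and their pseudogenes, were assigned is not given in the sources used here, so their levels are uncertain.

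Carriers of sugars had 8 of 10 genes above 0 and a median of 0.13. Slc37a3, of the sugar phosphate exchangers, was at 1.73 RPKM untreated (511 reads) and 4.03 with vitamin C (1521 reads), 2.33-fold higher (2.11 to 2.58). Slc37a4, which carries glucose 6-phosphate into the endoplasmic reticulum, was at 22.1 and 23.8. Slc2a6, a relative of the glucose transporters found on lysosomes, was 1.42-fold higher at 55.4 and 78.8, and Slc2a9, a urate carrier of the same family, 1.41-fold lower at 5.63 and 4.00. Carriers of carboxylates had only 2 of 6 above 0 and a median of −0.20. Slc16a1, the main lactate and pyruvate carrier, was at 32.7 and 46.0 RPKM, 1.40-fold higher, and its chaperone Bsg was at 355.8 and 484.2. The lactate exporter Slc16a3 was low in both, at 1.45 and 0.856, and the dicarboxylate carrier Slc13a2 was 1.63-fold lower at 4.47 and 2.74. The lactate dehydrogenase gene Ldha, a partner of these carriers, was at 371.5 and 617.6.

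The 3 fatty acid transport proteins held 1 gene past 2-fold in each direction. Slc27a1 was at 26.0 RPKM untreated (5285 reads) and 59.8 with vitamin C (15542 reads), 2.30-fold higher (2.23 to 2.37). Slc27a3 was at 4.30 (803 reads) and 1.81 (431 reads), 2.38-fold lower, with a ratio of 0.420 (0.373 to 0.473). Slc27a4 lay between them at 10.6 and 9.38. Slc27a1 was therefore the highest of the 3 per length in both libraries, and the distance to Slc27a3 was wider with vitamin C.

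Carriers of vitamins, choline and heme had 8 of 9 genes above 0 and a median of 0.18. The thiamine carrier Slc19a2 was at 9.72 and 13.1 RPKM, 1.35-fold higher. Slc48a1, which moves heme out of endosomes and lysosomes, was 1.23-fold higher, and the riboflavin carrier Slc52a2 was at 11.0 and 13.4. The folate carriers Slc19a1 (14.4 and 14.6) and Slc46a1 (4.61 and 4.66) were level, and the choline carrier Slc44a1 was the only one below 0, at 2.71 and 2.01. Among 5 nucleoside and nucleotide carriers, 4 were above 0, and the equilibrative nucleoside carrier Slc29a1 was at 27.8 and 34.3. Slc43a3, a purine base carrier, was at 2.39 and 3.17. The phosphate carriers differed, Slc20a1 being 1.48-fold higher at 14.3 and 21.2 and Slc20a2 level at 9.51 and 9.33. The vesicular monoamine carrier Slc18a2 was 1.55-fold higher at 23.1 and 35.8, and the acetyl-CoA carrier Slc33a1 was at 15.8 and 20.0. Of the peptide carriers, Slc15a4 was level at 18.6 and 18.7 and Slc15a2 lower at 2.57 and 1.66.

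Carriers of inorganic and organic ions went in both directions. The sodium, potassium, calcium and proton carriers had 3 of 7 above 0 and a median of −0.16. Slc9a9, a sodium-proton exchanger of endosomes, was at 3.49 and 1.94 RPKM (1.8-fold lower) and Slc9a8 at 8.87 and 6.69, while the calcium exchanger Slc24a3 was 1.34-fold higher at 17.4 and 23.2. Among anion carriers, 3 of 5 were above 0 and the median was 0.10. Slc26a11 was at 10.3 and 5.45 (1.89-fold lower) and Slc26a6 at 22.3 and 14.9 (1.5-fold lower), whereas the bicarbonate carriers Slc4a2 (17.3 and 18.5) and Slc4a7 (11.7 and 12.9) were slightly higher. Of the cation-chloride cotransporters, 2 of 4 were above 0, with Slc12a2 at 3.58 and 4.17 and Slc12a9 at 6.07 and 4.46. Of 8 bile acid and organic ion carriers, 3 were above 0. The organic cation carrier Slc22a3, the highest of them, was at 54.6 and 64.9, and Slc22a4, which carries ergothioneine, at 15.7 and 11.2. Slc22a21, its neighbour and close relative, was at 1.51 and 0.833. A further 3 genes carry an Slc symbol but are no carriers. The scaffold Slc9a3r1 was at 106.8 and 110.8, Slc7a6os at 28.8 and 23.6 and Slc4a1ap at 9.28 and 8.86.

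**Figure D2:**
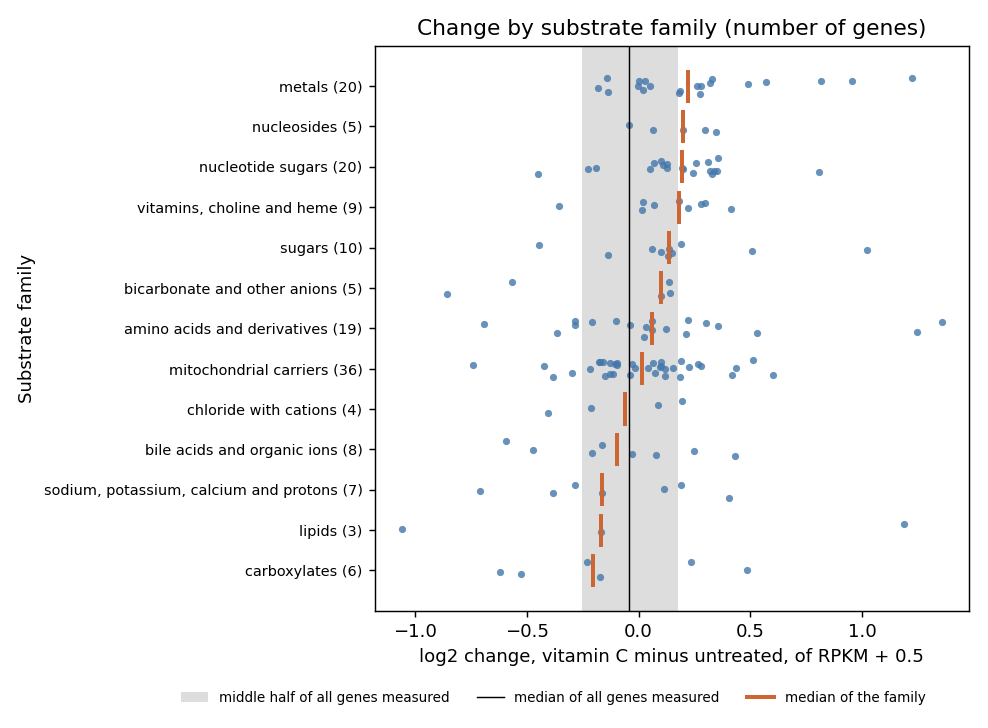
Points are log2 changes of RPKM + 0.5, vitamin C minus untreated, of single genes in the 13 substrate families with 3 or more genes (the mixed set of other carriers and the non-carriers are not drawn), with the number of genes in brackets. Thick orange lines are family medians, and the grey band and black line give the interquartile range and median of all genes measured. Of the families drawn, metal carriers have the highest median (0.22) and carboxylate carriers the lowest (−0.20).

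Medians of these 13 families ran from −0.20 for carboxylates to 0.22 for metals. The interquartile range over all genes measured was −0.25 to 0.18. The medians of metals, nucleosides, nucleotide sugars and vitamins, choline and heme lay just above it, and no median lay below it. Every one of the 13 held genes on both sides of 0. The families are of 3 to 36 genes from 1 pair of libraries, and whether their medians differ beyond the spread between cultures was not tested. When genes under 5 RPKM were left out, 3 of the 11 medians of families with 5 or more genes changed sign, to −0.23 for bicarbonate and other anions, 0.08 for bile acids and organic ions and 0.03 for carboxylates, and the others kept theirs. Scaling by TMM or by DESeq2 size factors changed the sign of none of the 11.

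**Figure D3:**
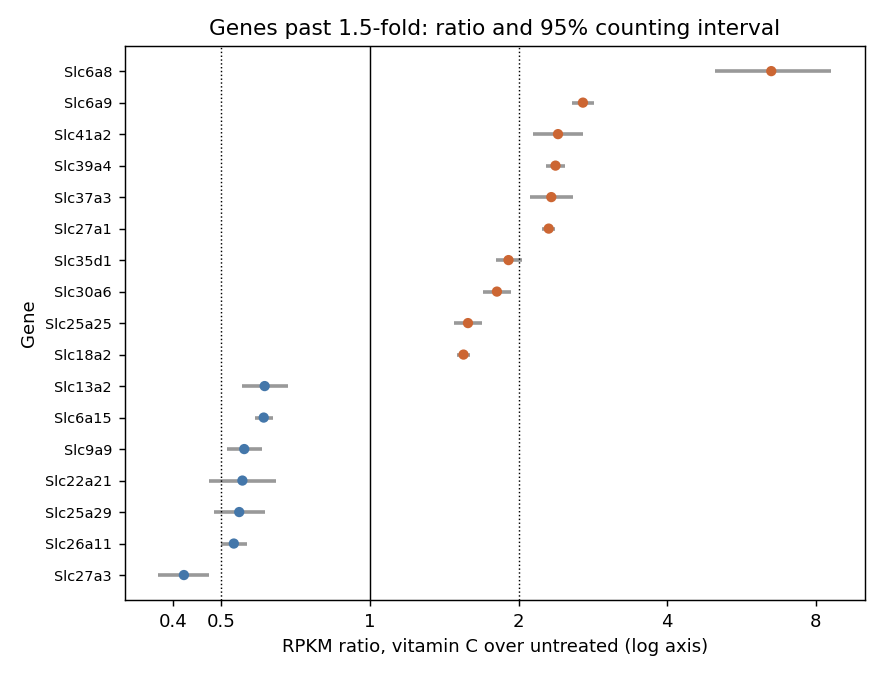
Ratio of RPKM, vitamin C over untreated, on a log axis for the 17 genes past 1.5-fold on the scale of RPKM + 0.5. Grey bars are exact 95% counting intervals and dotted lines mark 2-fold. Slc6a8 stands furthest to the right at 6.50, and Slc27a3 furthest to the left at 0.420.

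Genes related in function gave further values. Over all genes measured, 2.38% were at least 2-fold higher and 1.92% at least 2-fold lower. The median over all genes was −0.04, with 44.8% above 0. Of 71 members of solute carrier families that carry another name, 36 were measured, with a median log2 change of 0.10. None was 2-fold higher and 2 were 2-fold lower, the pyrophosphate exporter Ank (18.6 and 2.98 RPKM) and Slco3a1 (9.77 and 3.76). The mitochondrial pyruvate carrier subunits went apart, Mpc1 at 21.4 and 30.8 and Mpc2 at 5.38 and 4.82. Of 46 ABC transporters, which use ATP directly, 21 were measured with a median of −0.11, and only Abcb1b was past 2-fold (5.42 and 13.3 RPKM). Of 28 partners and regulators of solute carriers, 23 were measured, 19 of them (82.6%) above 0 with a median of 0.32. Mt2 was the single one past 2-fold, and Atf4, an activator of amino acid carrier genes, was at 207.2 and 312.4. Myc, at 250.6 and 203.4, was the lowest of them.

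Marks of active promoters were present at nearly all of these genes in both libraries. Within 1 kb of a RefSeq start, 96.8% of the 125 solute carriers with a promoter window had an H3K4me3 peak in either library (96.4% of 8121 genes measured), and 89.6% untreated and 90.4% with vitamin C had H3K27ac (91.5% and 90.8% of genes). H3K4me1, a mark of enhancers and promoter flanks, was at 60.8% (exact 95% interval 51.7 to 69.4%) and 53.6% (44.5 to 62.6%), with 57.8% and 47.0% over all genes. H3K27ac peaks at Slc31a2 and Slc38a7 were listed with vitamin C only (1.6%, against 0.653% of all genes). That at Slc25a20 was listed without it only (0.8%, against 1.35%). The factor peaks differed more. PU.1, a myeloid ETS factor, had a peak near a start of 50 of 125 genes untreated (40.0%, 31.3 to 49.1%). With vitamin C it had one at 24 genes (19.2%, 12.7 to 27.2%). These shares were close to the 43.9% and 20.0% of all genes. Runx1, a factor of blood stem cells, had one at 39 (31.2%) untreated and 59 (47.2%) with vitamin C, against 27.6% and 47.8%. The whole lists moved the same way, from 61611 to 23522 PU.1 intervals and from 3908 to 6250 Runx1 intervals (repeats removed), and the part of list length in these shares was not tested.

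**Figure D4:**
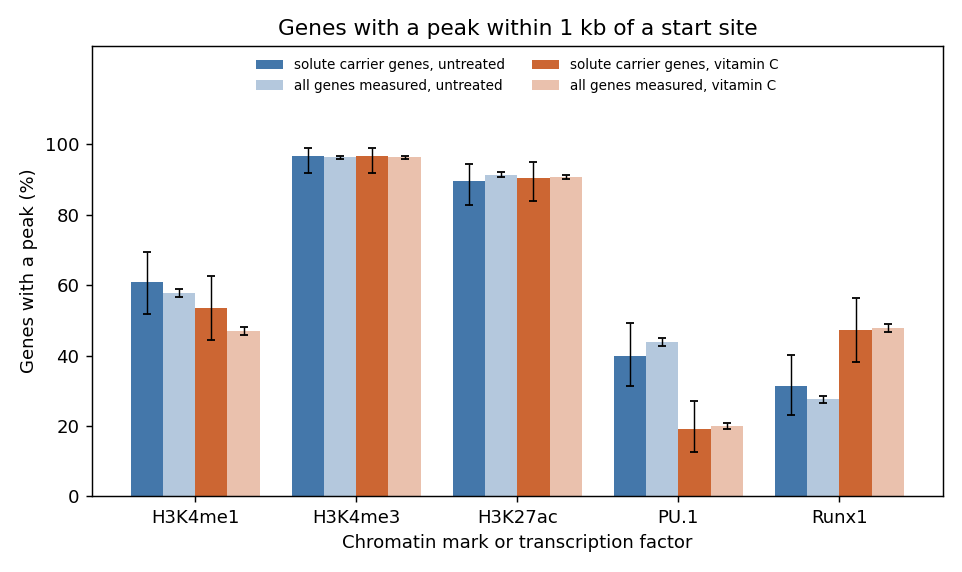
Share of genes with a peak within 1 kb of a start site, for 125 solute carriers (full colour) and 8121 genes measured (pale), in the untreated (blue) and vitamin C (orange) libraries. Error bars are exact 95% binomial intervals over genes. At this window of 1 kb, solute carriers lie near all genes, with PU.1 going from 40.0% to 19.2% and Runx1 from 31.2% to 47.2%.

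PU.1 peaks near a start were listed for 28 genes (22.4%, against 24.6% of all genes) in the untreated library alone and for 22 (17.6%, against 19.3%) in both. With vitamin C alone they were at 2 (1.6%, against 0.739%), which were Slc16a1 and Slc25a23. Runx1 peaks were listed for 23 genes (18.4%, against 21.2%) with vitamin C alone and for 36 (28.8%, against 26.6%) in both. Untreated alone they were at 3 (2.4%, against 0.924%), which were Slc35a1, Slc38a7 and Slc5a3. The RNA medians of the classes with 22 or more genes lay close together. The median log2 change was 0.10 where PU.1 was listed untreated only, 0.12 where it was in both and 0.08 where it was in neither. For Runx1 it was 0.07 with vitamin C only, 0.10 in both and 0.08 in neither. The small classes had 0.13 (2 genes, PU.1 with vitamin C only) and 0.19 (3 genes, Runx1 untreated only). The families differed in these counts, a pattern seen in the data and given as a description. PU.1 peaks were at 13 of 17 nucleotide sugar carrier genes untreated and 4 with vitamin C, and at 10 and 4 of 17 for metals. At mitochondrial carriers they were at 5 and 4 of 28 genes, where Runx1 was at 12 and 18. GGAAGT was counted per window and not per gene, and some genes have more than 1 window. It was in 9 of 19 windows (47.4%) for metals and 8 of 21 (38.1%) for nucleotide sugars, against 7 of 34 (20.6%) for mitochondrial carriers. Not all families were split this way. Amino acid carriers had untreated PU.1 peaks at 7 of 13 genes but GGAAGT in 3 of 18 windows (16.7%). Bile acid and organic ion carriers had such peaks at 4 of 6 genes and GGAAGT in 1 of 6 windows (16.7%). Of 27 solute carrier windows that overlapped an untreated PU.1 peak, 11 (40.7%) held GGAAGT, against 29 of 135 (21.5%) that did not. Over all genes these shares were 54.3% and 21.4%. TGTGGT showed no such excess, being in 5 of 61 windows (8.20%) that overlapped a vitamin C Runx1 peak and 13 of 101 (12.9%) that did not.

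**Figure D5:**
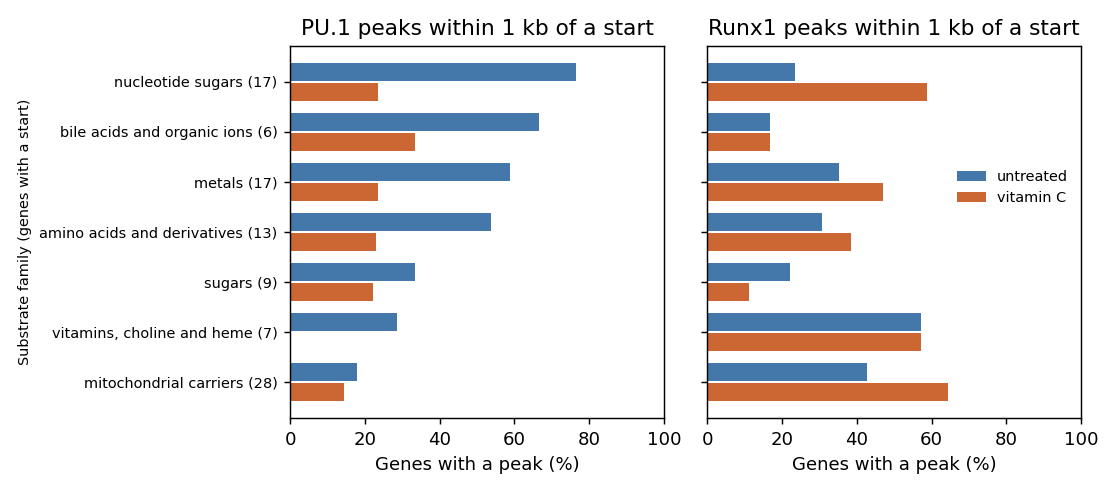
Share of genes with a PU.1 or Runx1 peak within 1 kb of a start, by substrate family, for families with 6 or more genes that have a promoter window (their number in brackets). Blue bars are the untreated and orange bars the vitamin C library. PU.1 is at 13 of 17 nucleotide sugar carriers untreated and 4 with vitamin C, and at 5 and 4 of 28 mitochondrial carriers.

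At single genes the peaks bear on the sequences shown above. The score of each peak is the authors' own and has no stated definition. Scores of the 2 libraries come from separate lists of unlike length. The pairs below are printed side by side, and whether binding differed between the libraries was not tested. At Slc39a7, a PU.1 peak (untreated chr17:34031628-34032028) covers the GGAAGT window, with a score of 32.5 untreated and 2.05 with vitamin C, and Runx1 peaks scored 8.80 and 25.4. At Slc30a6, a PU.1 peak was listed untreated only (score 8.55, chr17:74395489-74395724), and Runx1 scored 11.1 and 66.6. At Slc6a9, a PU.1 peak of score 6.50 lay downstream of the start untreated only, at chr4:117835997-117836258, and no Runx1 peak was listed within 1 kb. Slc27a1 had a PU.1 peak before its upstream start in both libraries (57.3 and 13.0) and a Runx1 peak with vitamin C alone, at chr8:71570543-71570776 with a score of 6.66, across the start whose window is printed. Slc35d1 had a PU.1 peak untreated only (6.50). Genes with lower RNA had such peaks too. Within 1 kb of the start, PU.1 scored 140.4 untreated and 45.6 with vitamin C at Slc22a4, and at Slc2a9 it scored 97.6 and 39.1. Runx1 scored 5.96 and 38.6 at Slc25a30 and 15.2 and 91.8 at Slc38a10, both lower in RNA with vitamin C. Slc27a3 was 1 of 4 solute carriers with no H3K4me3 peak within 1 kb of a start in either library. It also had no H3K27ac, PU.1 or Runx1 peak there, and H3K4me1 peaks were listed in both libraries.

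Region lists of DNA methylation hold positions without values, with no statement in the sources used here of thresholds, direction or libraries compared. Inside the gene spans of the 162 solute carriers, the list of mutant MeDIP regions (iMR, filed with untreated cells of wild-type IDH1) had a region in 29 genes (17.9%, 12.3 to 24.7%), against 12.2% of 10071 genes measured with a position. The MeDIP deMR list had one in 24 (14.8% against 12.3%), the MeDIP iMR list in 12 (7.41% against 6.52%), and the hydroxymethylation list iHR in 28 (17.3% against 16.6%). The bisulfite lists had one in 32 (deMR, 19.8% against 16.3%) and 8 (iMR, 4.94% against 5.35%). The spans of solute carriers had a median of 24932 bp against 22216 bp, and these shares are not adjusted for span. In all, 77 had a region of any list (47.5%, against 41.8% of all genes), 33 of 2 or more lists (20.4% against 16.9%) and 17 of 3 or more (10.5% against 6.99%). Slc20a2 and the glutamine carrier Slc38a1 were in 5 lists, and both were level in RNA (Slc20a2 at 9.51 and 9.33 RPKM, Slc38a1 at 42.5 and 44.3). In Slc38a1 a MeDIP deMR and a mutant region had the same position, chr15:96638501-96639000. In the pyrimidine nucleotide carrier Slc25a33, a MeDIP deMR (chr4:149766001-149766500), a bisulfite deMR (chr4:149766459-149766628) and an iHR (chr4:149765751-149767000) overlapped, and its RNA was at 14.0 and 16.1 RPKM.

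Near start sites regions were rare. Mutant MeDIP regions lay within 1 kb of the start of 8 of the 125 genes with a window (6.40%, 2.80 to 12.2%), against 1.66% of 8121 genes. They were Slc16a3, Slc18a2, Slc22a4, Slc25a29, Slc27a1, Slc27a3, Slc37a3 and Slc5a3. The region at Slc27a1 (chr8:71570001-71570500) covers the first part of the window printed above, and that at Slc27a3 (chr3:90389501-90390500) covers all of its window. In RNA, 3 of the 8 were past 2-fold, Slc27a1 and Slc37a3 being higher and Slc27a3 lower, so the direction differed among them. At Slc37a3 a MeDIP deMR had the same position as the mutant region (chr6:39378544-39379044). At Slc25a25, 1.58-fold higher, a MeDIP deMR (chr2:32452001-32452500) overlapped PU.1 and Runx1 peaks of both libraries, the PU.1 peak there scoring 63.6 and 17.7 and the Runx1 peak 8.96 and 69.8. At Slc6a9 an iHR (chr4:117861501-117862500) and a bisulfite deMR (chr4:117862344-117862672) overlapped each other in the gene, away from the start. In Slc31a2, 1.53-fold higher, a bisulfite deMR of 904 bp lay at chr4:62282666-62283569. In Slc26a11, 1.89-fold lower, a MeDIP deMR (chr11:119377501-119378000) lay within a mutant region (chr11:119377001-119378000). Regions of the same lists were thus found in genes with higher, level and lower RNA.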

How the data were processed

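RNA-seq, ChIP-seq, MeDIP-seq, hMeDIP-seq and WGBS files of 18 of 24 samples were used, each sample its own group of 1, so the replicate spread is unknown. Build mm10 and, with no roles, the tools BWA, MACS2 2.1.0.2, Picard, SAMtools (0.1.16, 0.1.8 and 0.1.2), CASAVA 1.8.2 and Novoalign 3.02.08 appear in the submitters' processing notes. For the read counter, its strand setting and its annotation the answer is not given in the sources used here, although the library kit was strand specific per the labels' protocols. For each Ensembl gene the authors deposited an unnormalized read count and an RPKM value, and 3 unnamed columns per RNA-seq file were not used. Histone peak lists were deposited with 1 p-value per peak, which may be a q-value since the files do not say. PU.1 and Runx1 lists were deposited with a score of no stated definition. The methylation region lists were deposited as positions only. The authors' lists of higher and lower genes were matched by Ensembl identifier.

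Symbols were matched by Ensembl identifier for 21611 of 22371 genes. The log2 change was taken on RPKM + 0.5 for genes with 1 RPKM in 1 or both libraries. Ratios have exact 95% Clopper-Pearson intervals from the split of reads, scaled by the ratio of reads per RPKM (1.28), and shares have exact binomial intervals, both of counting error only. Peaks were assigned by an overlap of 1 bp with 1 kb on either side of a RefSeq start, known for 125 genes, and regions by overlap with the gene span of RefSeq GRCm38.p6. Starts of ChIP and WGBS intervals were raised by 1 to count from 1. Substrate families were assigned by hand from family numbers. Genes were named by rule: those past 2-fold, the 12 largest changes in each direction with 5 RPKM, the 8 highest, and in each family of 3 or more the highest and the most changed. Values of some genes that the rule names are not reported here. Other genes named were chosen after their values were seen, and the genes and lists were chosen with earlier results of these data known. Work used Python 3.11.15, pandas 2.3.3, scipy 1.17.1, and edgeR 4.0.16 and DESeq2 1.42.0 for scaling only. Alternatives were other pseudocounts, scalings, minimum levels, folds, peak thresholds, windows and overlaps.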

Additional observations from a re-analysis of the deposited data

How the results depend on the processing

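No paired analysis was possible because each condition had 1 library and no result came from a test. The 46 genes named by rule had 276 alternatives, with 3 changes of sign, all of Slc25a3. Genes past 2-fold kept their sign, which the pseudocounts and scalings tried could hardly change, so this says little. The 5 genes 2-fold higher and 1 lower became 3 and 0 with a pseudocount of 1 RPKM (Slc27a1, Slc39a4 and Slc6a9 left), 3 and 0 at a minimum of 5 RPKM, and 10 and 7 at 1.5-fold. Without a minimum, 6 were higher (Slc26a3 joined) and 2 lower (Slc12a7 joined). Under TMM, DESeq2 size factors or a pseudocount of 0.1 RPKM, 6 were higher (Slc41a2 joined) and 1 lower. The median over all solute carriers, 0.09, was 0.14 under TMM and under DESeq2 size factors, 0.13 centred on the median of all genes and 0 without a minimum, where genes without reads enter. That of bicarbonate and other anions, 0.10, was 0.15 under TMM, 0.15 under DESeq2 size factors and 0.14 centred. TMM moved the median of all genes from −0.04 to 0.01. Shares of genes with a peak near a start depended on the window. Each share below is followed in brackets by that of all genes measured. H3K4me1 untreated, 60.8% in the main setting, was 41.6% (36.6%) at 500 bp and 70.4% (70.4%) at 2.5 kb. It was 34.4% (32.0%) with a stricter threshold. Under an overlap rule by which at least as much of the peak had to lie inside the window as outside, it was 14.4% (17.4%). With vitamin C, 53.6% in the main setting, it was 39.2% (27.9%) at 500 bp and 14.4% (13.3%) with the stricter threshold. Under that overlap rule it was 24.8% (18.7%), so the vitamin C share was then the higher one, the reverse of the main setting. H3K4me3, 96.8% in the main setting, fell under that overlap rule to 85.6% (83.3%) untreated and 81.6% (82.8%) with vitamin C. PU.1 untreated, 40.0% in the main setting, was 28.8% (36.7%) at 500 bp and 49.6% (53.2%) at 2.5 kb. Under the stricter threshold it was 22.4% (23.8%). With vitamin C, 19.2% in the main setting, PU.1 was 11.2% (15.8%), 29.6% (27.1%) and 12% (11.4%) under the same 3 settings. Runx1 under the stricter threshold was 21.6% (16.3%) untreated and 29.6% (28.2%) with vitamin C. Shares of genes with a methylation region were also taken within 1 kb of the start, again with all genes measured in brackets. They were 6.4% (1.66%) for mutant regions, 3.2% (0.813%) for MeDIP deMR and 0% (0.271%) for MeDIP iMR. For WGBS deMR the share was 1.6% (2.89%), for WGBS iMR 2.4% (3.18%) and for iHR 2.4% (1.93%). MeDIP deMR reached 21.6% (15.5%) when spans were extended by 5 kb. The cause of these moves was not tested, beyond the smaller or larger window itself. Depth limited few values, and the lack of replicates limited all.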
